A study of Rattus norvegicus with 12 samples.

Results

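The genes described here encode the enzymes that place acetyl groups on proteins, the enzymes that take them off, and proteins that bind the acetylated lysine, outside the KAT6A complex itself. From a list of 34 such rat genes, those were kept whose symbol equals a row of the count table and whose row held 10 or more counts in 3 or more libraries. Of the 34, 31 matched a row and 29 met the rule, of 32883 genes in the table. Brd2 had at most 8 counts and Hdac6 at most 2 in any library, so both fell out, and Ep300, Kat2b and Sirt1 matched no row by symbol and are not analysed here. All 29 were among the 14063 genes tested. The 29 comprise 9 acetyltransferase genes, 10 histone deacetylase (HDAC) genes, the corepressor Ncor1, 6 sirtuins and 3 bromodomain proteins.

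Lysine acetyltransferases move an acetyl group from acetyl-CoA onto the side chain of lysine in histones and other proteins, which neutralises its charge and makes a docking site for bromodomains. HDACs remove the group by a zinc-dependent reaction, and sirtuins remove it at the cost of NAD. In heart muscle, class IIa HDACs are best known for holding MEF2 transcription factors silent until a growth signal sends the HDAC out of the nucleus, and mitochondrial sirtuins are known for deacylating enzymes of energy metabolism. N-terminal acetyltransferases form a separate family, which acetylates the first residue of new proteins rather than lysine.

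Poly(A) RNA was sequenced from primary ventricular heart muscle cells of newborn rats, taken 2 days after an adenovirus was added. The virus carried LacZ, a bacterial gene that serves as control cargo, or human KAT6A, a lysine acetyltransferase of the MYST family. KAT6A was given as the wild type (WT), as K815R, in which arginine replaces a lysine and resists acetylation, or as K815Q, in which glutamine stands in for the acetylated residue. There were 3 libraries in each of these 4 groups. Every group received a virus, and the cells kept their own Kat6a gene. Nothing in the labels says whether the 3 libraries of a group came from separate cell preparations, so the p-values measure only the spread between these libraries, which may be technical.

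Gene counts per library ran from 19102048 to 25451686. Levels are given as CPM, counts scaled by TMM to a common library total, which allows a gene to be compared between libraries but not with a gene of another length. The row of rat Kat6a, which would also hold human reads that align there, checks the labels: it stood at 45.2 to 53.6 CPM with LacZ, 82 to 106 with WT and 101 to 122 with K815R, but only at 43.4 to 50 in the libraries labelled K815Q. They are called K815Q-labelled libraries throughout, since what sets them apart is known from the label alone. Only by that label are they counted among the KAT6A forms. Cardiomyocyte markers were present in all libraries: 9 genes summed to 32700 to 34100 CPM with LacZ, 35200 to 35400 with WT, 35000 to 35800 with K815R and 33200 to 35200 in the K815Q-labelled libraries. Of these, Pln and Mybpc3 were called higher in WT against LacZ and Pln in the K815Q-labelled libraries. Myh7 was called higher in K815R (mean 5070 CPM) than in WT (3920) and than in the K815Q-labelled libraries (3640). The 8 fibroblast markers summed to 11800 to 12700 CPM with LacZ, 11000 to 12000 with WT, 11100 to 11500 with K815R and 11900 to 12800 in the K815Q-labelled libraries. Of these, Pdgfra was called lower and Postn higher in WT against LacZ, Postn and Tcf21 higher in the K815Q-labelled libraries, and none in K815R. In K815R against WT Pdgfra was called higher and Postn lower, and in the K815Q-labelled libraries against WT Pdgfra was called higher. A list of 31 interferon-induced genes summed to 1190 to 1790 CPM with LacZ, 382 to 569 with WT, 534 to 625 with K815R and 356 to 429 in the K815Q-labelled libraries, and 31, 29 and 31 of them were called lower against LacZ. The 10 macrophage and leukocyte markers, of which Lyz2, Cd68 and Csf1r are examples, summed to 74.8 to 95.6 CPM with LacZ, 95 to 101 with WT, 98.2 to 105 with K815R and 101 to 109 in the K815Q-labelled libraries. Of these markers Lyz2 was called higher in all 3 comparisons with LacZ, Adgre1 lower in the K815Q-labelled libraries, and the other 8 in none. Fewer cells of a type and less RNA per cell cannot be told apart in such bulk samples. The part of these lists in the results below was not tested.

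Few of the acetylation genes were called, and few of all genes tested, of which 0.363% to 7.85% were called in the 6 comparisons. Of 174 tests (29 genes in 6 comparisons), 3 were called, where a call means an adjusted p under 0.05 in edgeR's quasi-likelihood fit, adjusted by Benjamini-Hochberg over all 14063 genes. Hdac10 rose and Hdac1 fell in WT against LacZ, and Naa50 fell in the K815Q-labelled libraries against LacZ. The changes were small, with levels 1.28, 0.876 and 0.85 times those in LacZ. Across all 174 tests the 95% interval of the fold change lay within 2-fold either way in every case, within 1.5-fold in 172 and within 1.2-fold in 121. The 2 intervals that passed 1.5-fold were both of Sirt4, which had 82 to 105 counts per library. Intervals of all genes tested were not counted in this way, so these counts do not set the 29 genes apart from genes at large.

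Against LacZ, WT gave 2 calls among the 29 genes (6.90%), beside 5.34% of all genes tested, and 5 genes at an unadjusted p under 0.05 (17.2%, all genes 19.1%). K815R gave 0 calls, beside 2.47% of all genes, with 4 genes at an unadjusted p under 0.05 (13.8%, the same share as the 13.8% of all genes) and 0 calls by DESeq2. The K815Q-labelled libraries gave 1 call (3.45%), beside 7.85% of all genes, and 7 genes at an unadjusted p under 0.05 (24.1%, all genes 24.2%). The median log2 fold change of the 29 genes was 0.02, 0.02 and 0.05 in these comparisons, where that of all genes was 0.01, 0.00 and 0.01. At an unadjusted p under 0.05 the shares in these comparisons lay within 2 percentage points of those of genes at large.

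Between the KAT6A forms no gene of the set was called by edgeR or by DESeq2. For K815R against WT the background was 2.2% of all genes called, and 0 of the 29 had an unadjusted p under 0.05, beside 13.8% of all genes. For the K815Q-labelled libraries against WT it was 1.07%, with 3 of 29 (10.3%) at an unadjusted p under 0.05 beside 14.4%. For K815R against the K815Q-labelled libraries it was 0.363%, with 2 of 29 (6.90%) beside 11.4%. The test of any difference among the 4 groups called 0 of 29, beside 8.13% of all genes, with 6 (20.7%) at an unadjusted p under 0.05 beside 24.6% and again 0 by DESeq2.

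Complete separation of 3 libraries from 3 was somewhat more frequent than in the whole table in 4 of the 6 comparisons and less frequent in the other 2. It was seen for 8 of 29 genes in WT against LacZ (27.6%, all genes 24.6%), 6 in K815R (20.7%, all genes 18.7%) and 9 in the group labelled K815Q (31%, all genes 28.4%). Between the forms it was seen for 3 genes in K815R against WT (10.3%, all genes 19%), 5 in the K815Q-labelled libraries against WT (17.2%, all genes 19.3%) and 6 in K815R against the K815Q-labelled libraries (20.7%, all genes 16%).

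**Figure D1:**
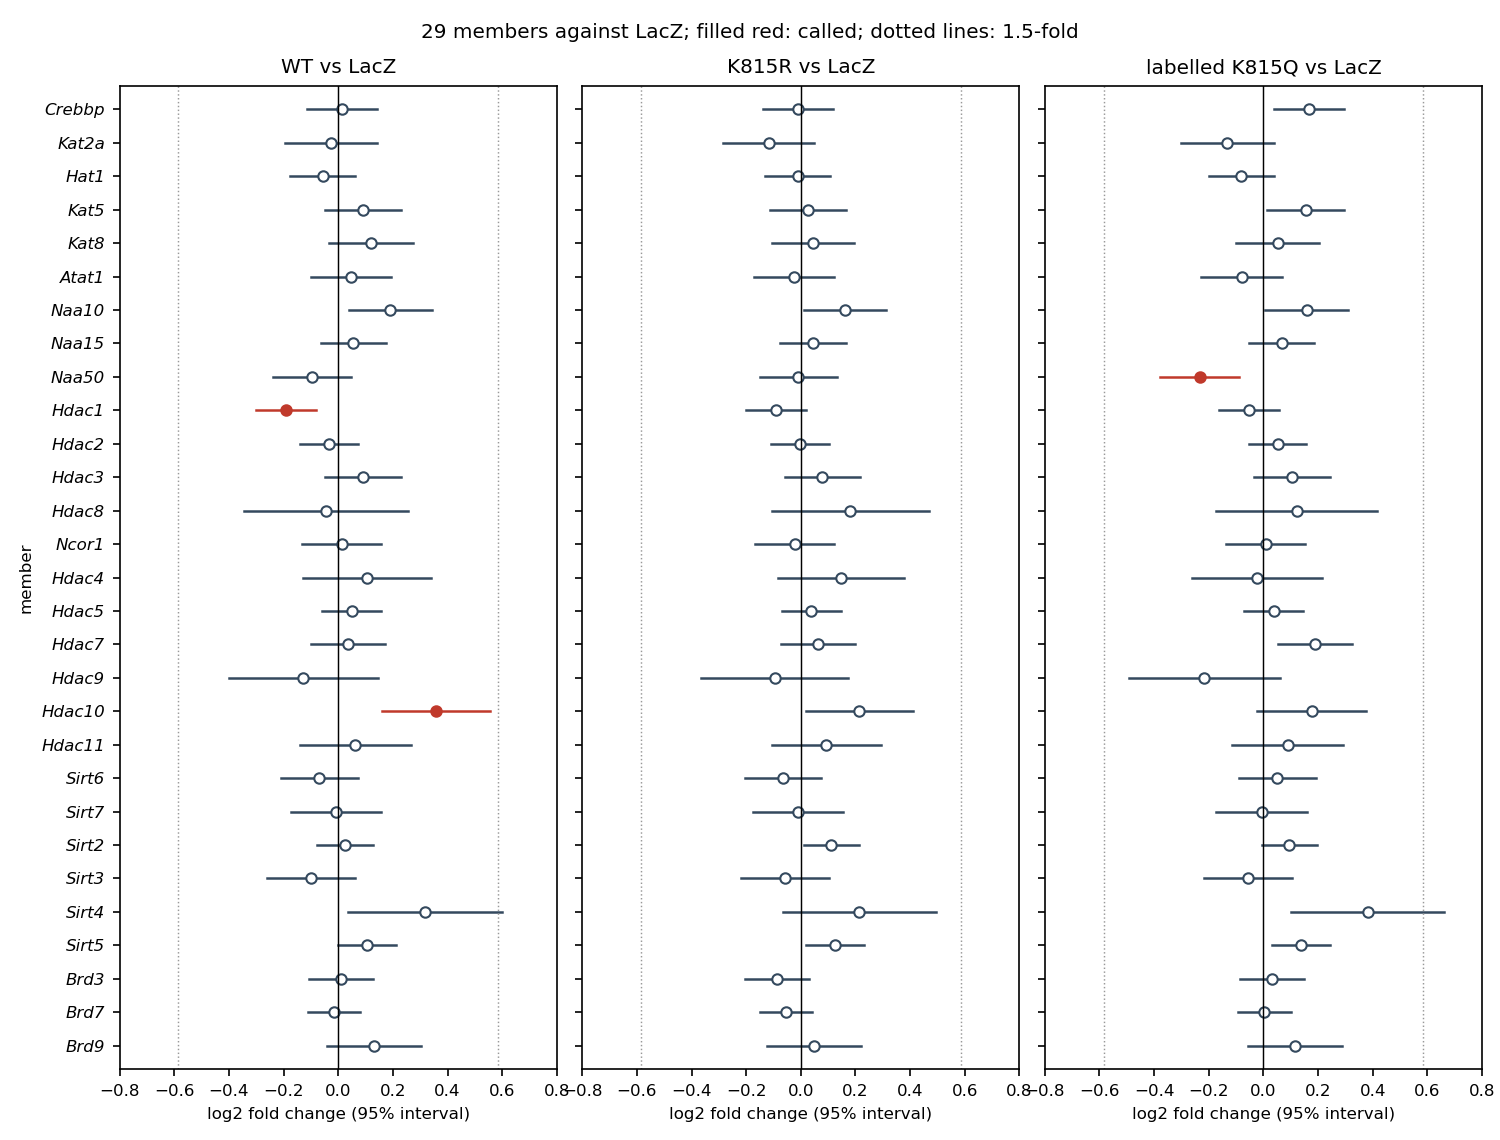
Log2 fold change against LacZ (points) with its 95% interval (lines) for the 29 genes in WT, K815R and the K815Q-labelled libraries, with dotted lines at 1.5-fold. The called genes, filled red, are Hdac1 and Hdac10 in WT and Naa50 in the K815Q-labelled libraries, and the longest intervals belong to low-count genes such as Sirt4, Hdac8 and Hdac9.

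Hdac10 (ENSRNOG00000031915) encodes a class IIb deacetylase of the cytosol, known for removing acetyl groups from polyamines. It stood at 9.59, 8.56 and 8.28 CPM in the LacZ libraries and at 11.6, 10.5 and 11.7 in WT. K815R lay at 9.22, 10.9 and 10.4 CPM and the K815Q-labelled libraries at 10.3, 9.80 and 9.80. Every WT library lay above every LacZ library, the K815Q-labelled libraries also lay wholly between these groups, and K815R overlapped LacZ through its replicate 1. The log2 fold change of WT against LacZ was 0.36 (SE 0.0947, 95% interval 0.16 to 0.55, edgeR adjusted p 0.0265). Smaller values of 0.21 (K815R) and 0.18 (K815Q-labelled) were not called (edgeR adjusted p 0.309 and 0.268). The WT call was lost without LacZ replicate 2 or 3 or WT replicate 1 or 3, where the log2 fold change was 0.31 to 0.34 and the adjusted p 0.0887 to 0.114, and it was lost in DESeq2 (0.35, adjusted p 0.0817).

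Hdac1 (ENSRNOG00000009568) is a class I deacetylase, the catalytic subunit shared by the SIN3, NuRD and CoREST corepressors. Its level was 82.7, 79.9 and 79.1 CPM with LacZ, 74.2, 69.7 and 67.9 with WT, 77.5, 75.2 and 74.2 with K815R, and 82.9, 74.4 and 75.9 in the K815Q-labelled libraries. All WT and all K815R libraries lay below LacZ, whereas K815Q-labelled replicate 1 lay just above the highest LacZ library and was the highest of all 12. WT fell against LacZ by 0.19 on the log2 scale (SE 0.0532, 95% interval -0.30 to -0.08, edgeR adjusted p 0.0358), and K815R differed from LacZ by -0.09 without a call (edgeR adjusted p 0.475). Of the 6 fits without 1 library, that without WT replicate 1 kept the call; without LacZ replicate 1, 2 or 3 or WT replicate 2 or 3 the log2 fold change was -0.21 to -0.16 with adjusted p of 0.0552 to 0.143. The table also lists Hdac1l, an Hdac1-like gene at 1.51 to 3.09 CPM, and reads that fit both places equally are in neither count. Hdac1l did not separate WT from LacZ (log2 fold change 0.0042, 95% interval -0.50 to 0.51).

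Naa50 (ENSRNOG00000039017) encodes an N-terminal acetyltransferase that rides on the NatA complex. It measured 22.6, 25.6 and 23.2 CPM with LacZ, 22, 22.2 and 22.6 with WT, 22.8, 23.1 and 25.1 with K815R, and 20.2, 19.8 and 20.8 in the K815Q-labelled libraries. The last were the lowest 3 of all 12 libraries. Against LacZ they fell by 0.23 on the log2 scale (SE 0.0698, 95% interval -0.38 to -0.09, edgeR adjusted p 0.0419). The differences from the other forms were not called: K815R lay above the K815Q-labelled libraries (log2 fold change 0.22, edgeR adjusted p 0.187), and these differed from WT by -0.14 (edgeR adjusted p 0.394). The call against LacZ was kept without LacZ replicate 1 and lost without any other of the 6 libraries (log2 fold change -0.25 to -0.18, adjusted p 0.0689 to 0.189), in DESeq2 (adjusted p 0.0684) and in an edgeR fit of only these 2 groups (adjusted p 0.0565).

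**Figure D2:**
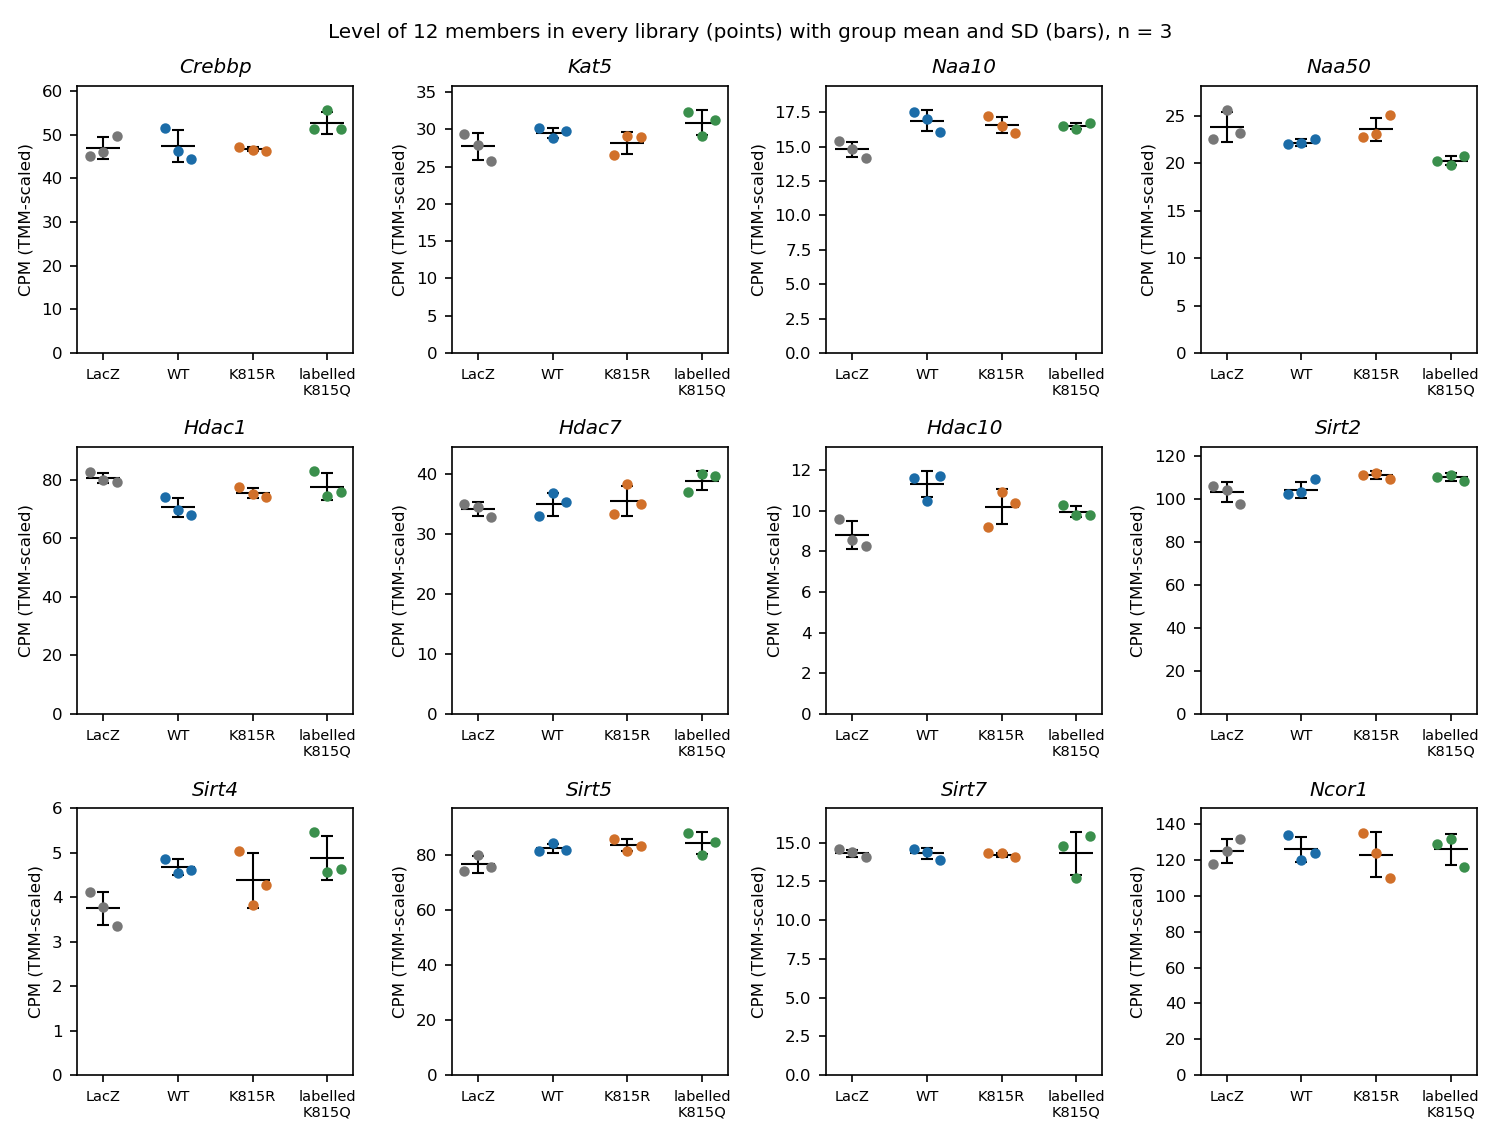
Level in TMM-scaled CPM, on axes from 0, of the 10 genes with an unadjusted p under 0.05 in any comparison, and of Sirt7 and Ncor1, whose log2 fold changes were smallest. Points are libraries, and the bars give the group mean and SD (n = 3); WT lies below LacZ for Hdac1 and above it for Hdac10, and the K815Q-labelled libraries are lowest for Naa50.

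The promoters of these 3 genes are shown because they are the genes that were called, and they can be set beside the promoters of the interferon genes that fell in the same libraries. Each line gives the 250 bases before the annotated start in RefSeq, assembly GRCr8, all on the minus strand, 5′ to 3′. Capitals mark matches to the GC box GGGCGG or its reverse complement CCGCCC, overlapping matches included. The counts themselves were made on another build, so the coordinates belong to the sequences alone: chr5:147165388-147165637 for Hdac1, chr7:122083847-122084096 for Hdac10 and chr11:70066755-70067004 for Naa50.
Hdac1: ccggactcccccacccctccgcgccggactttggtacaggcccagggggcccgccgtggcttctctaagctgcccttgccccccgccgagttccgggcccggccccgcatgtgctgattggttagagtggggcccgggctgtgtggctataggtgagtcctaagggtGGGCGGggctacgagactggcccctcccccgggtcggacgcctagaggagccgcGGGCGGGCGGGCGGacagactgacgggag
Hdac10: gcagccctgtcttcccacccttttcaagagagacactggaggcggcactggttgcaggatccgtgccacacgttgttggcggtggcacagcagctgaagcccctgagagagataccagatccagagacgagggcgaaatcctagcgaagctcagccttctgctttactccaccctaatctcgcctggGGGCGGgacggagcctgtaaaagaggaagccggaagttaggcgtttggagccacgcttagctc
Naa50: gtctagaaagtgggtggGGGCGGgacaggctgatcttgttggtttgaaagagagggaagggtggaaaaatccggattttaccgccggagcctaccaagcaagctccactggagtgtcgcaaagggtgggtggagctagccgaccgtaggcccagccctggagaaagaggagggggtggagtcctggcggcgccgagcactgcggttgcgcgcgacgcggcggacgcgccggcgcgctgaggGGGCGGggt
In these stretches there were 4 GC boxes and 23 CpG pairs in Hdac1, 1 and 13 in Hdac10, and 2 and 23 in Naa50. RefSeq promoter windows, from 250 bases before the start to 50 after it, were matched for 26 of the 29 genes. Of these, 17 (65.4%) held a GC box, where 33.1% of 33469 promoters did, and the median number of CpG pairs was 22.5 beside 7. None held TATAAA or TTTATA, which 14.2% of all promoters did. All promoters here means every annotated window, whether or not its gene was detected in these cells, whereas the 26 belong to genes that met the count rule. Promoters of the tested genes alone were not compared. The core of the interferon-stimulated response element, searched on both strands as GAAA followed after any 2 bases by GAAA, was found in 1 of 26 (that of Kat8), in 3.92% of all promoters, and in 15 of 22 matched promoters of the interferon list. A match is a run of letters in this window and not a measured binding site.

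Among the lysine acetyltransferases, none was called in any comparison. Crebbp encodes CBP, a broad coactivator and acetyltransferase recruited by many transcription factors. It stood at 45.1, 46.0 and 49.8 CPM with LacZ, 51.5, 46.2 and 44.5 with WT, 47.1, 46.6 and 46.3 with K815R, and 51.2, 55.6 and 51.4 in the K815Q-labelled libraries. The K815Q-labelled libraries lay above LacZ and K815R without overlap and shared their range with WT replicate 1. The log2 fold changes were 0.17 against LacZ (95% interval 0.04 to 0.29, edgeR adjusted p 0.0964) and -0.18 for K815R against the K815Q-labelled libraries (-0.30 to -0.05, edgeR adjusted p 0.249), and neither was called.

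Kat5 (TIP60, of the same MYST family as KAT6A, known in DNA repair and transcription) had group means of 27.7 ± 1.81, 29.5 ± 0.627, 28.2 ± 1.46 and 30.9 ± 1.64 CPM (SD, n = 3; here and below in the order LacZ, WT, K815R, K815Q-labelled). Its log2 fold change in the K815Q-labelled libraries against LacZ was 0.15 (95% interval 0.01 to 0.29, edgeR adjusted p 0.158), with overlapping groups and no call. Kat8 (MOF, the MYST enzyme for a lysine in the tail of histone H4) had group means of 22.3 ± 1.06, 24.3 ± 0.209, 23 ± 2.42 and 23.1 ± 0.362 CPM. Its 3 WT libraries, at 24.1 to 24.5, lay above the LacZ libraries at 21.2 to 23.3, with a log2 fold change of 0.12 (95% interval -0.03 to 0.27). The intervals of Kat5 and Kat8 against LacZ reached no further than -0.11 and 0.29 in WT, K815R or the K815Q-labelled libraries.

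Kat2a (GCN5, the catalytic subunit of the SAGA and ATAC coactivators) had group means of 27.8 ± 1.75, 27.3 ± 2.81, 25.5 ± 2.37 and 25.3 ± 1.38 CPM, with its largest difference in the K815Q-labelled libraries against LacZ (-0.13, 95% interval -0.30 to 0.04). Hat1, which acetylates new histones before they are deposited, had means of 44.1 ± 1.22, 42.3 ± 1.8, 43.8 ± 1.71 and 41.7 ± 1.69 CPM and log2 fold changes of -0.08 to 0.07. Atat1, which acetylates alpha-tubulin inside microtubules, had means of 24.6 ± 0.94, 25.4 ± 1.76, 24.2 ± 0.253 and 23.3 ± 1.73 CPM and log2 fold changes of -0.13 to 0.05. The groups overlapped in all 6 comparisons for Kat2a and Atat1, and in 5 for Hat1, whose K815Q-labelled libraries lay below LacZ.

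The other NatA subunits were examined beside Naa50. Naa10, the catalytic subunit of NatA, stood at 15.4, 14.8 and 14.2 CPM with LacZ, 17.5, 17 and 16.1 with WT, 17.2, 16.5 and 16 with K815R, and 16.5, 16.3 and 16.7 in the K815Q-labelled libraries. All 9 libraries of the other groups lay above all 3 LacZ libraries, with log2 fold changes of 0.19, 0.16 and 0.16. None of these differences was called (edgeR adjusted p 0.143, 0.315 and 0.189). The 3 comparisons share the LacZ libraries. Taken singly they separated 24.6%, 18.7% and 28.4% of all genes, and the share separated in all 3 at once was not counted. Naa15, the ribosome anchor of NatA, showed no such separation, with means of 110 ± 6.06, 114 ± 8.68, 114 ± 4.7 and 115 ± 4.49 CPM and log2 fold changes of -0.02 to 0.07. The 3 genes of the complex therefore did not share a direction in the K815Q-labelled libraries, where Naa10 and Naa15 had positive values and Naa50 fell.

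None of the remaining class I enzymes was called, where 0.363% to 7.85% of all genes were called in the 6 comparisons. Hdac2, the partner and near twin of Hdac1 in corepressor complexes, had means of 148 ± 5, 144 ± 6.69, 147 ± 6.93 and 153 ± 3.56 CPM. Its log2 fold change in WT against LacZ was -0.03 (95% interval -0.14 to 0.07), where Hdac1 fell by 0.19. Hdac3, the enzyme of the NCoR/SMRT corepressor, had means of 44 ± 1.63, 46.9 ± 3.43, 46.6 ± 3.05 and 47.3 ± 3.4 CPM. Ncor1, the scaffold that activates it, had means of 125 ± 6.76, 126 ± 6.92, 123 ± 12.6 and 126 ± 8.76 CPM. The log2 fold changes of Ncor1 were among the smallest of the set, -0.04 to 0.01 over the 6 comparisons, although K815R libraries alone spanned 110 to 135 CPM. Hdac8, a class I enzyme that deacetylates cohesin, had 67 to 116 counts per library and means of 3.58 ± 0.453, 3.48 ± 0.31, 4.05 ± 0.454 and 3.91 ± 0.369 CPM, and its intervals, from -0.34 to 0.52, are among the widest here.

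The 4 class IIa HDACs, which repress MEF2 targets in heart muscle, were called in no comparison. Of all genes, 0.363% to 7.85% were called, so 0 of so few does not set the class apart. Hdac5 was the best measured of them, with 2631 to 3737 counts per library. Its means were 137 ± 4.39, 142 ± 8.9, 141 ± 5.43 and 141 ± 3.72 CPM, and its 95% intervals over the 6 comparisons ran from -0.12 to 0.16 on the log2 scale. Hdac4 had means of 7.06 ± 1.12, 7.6 ± 0.368, 7.81 ± 0.199 and 6.96 ± 0.544 CPM. Its K815R libraries (7.68 to 8.04) lay above the K815Q-labelled ones (6.4 to 7.49) by a log2 fold change of 0.17 (95% interval -0.07 to 0.41).

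Hdac7, a class IIa enzyme first known from thymus and blood vessels, came nearest to a call among the genes without one. It stood at 35, 34.4 and 32.7 CPM with LacZ, 32.9, 36.7 and 35.2 with WT, 33.3, 38.2 and 35 with K815R, and 37.0, 39.9 and 39.6 in the K815Q-labelled libraries. The last lay above every LacZ and every WT library, by log2 fold changes of 0.19 and 0.15 (edgeR adjusted p 0.0743 and 0.284). The endothelial markers, on a list of 6 tested genes, summed to 160 to 179 CPM with LacZ and 159 to 206 with WT. They summed to 172 to 197 with K815R and 138 to 187 in the K815Q-labelled libraries. The part of endothelial cells in the level of Hdac7 was not tested. Hdac9, the class IIa member most tied to muscle, was the most variable of the 29 within groups, with a median coefficient of variation of 12.4%. Its means were 8.08 ± 0.921, 7.39 ± 0.661, 7.53 ± 1.01 and 6.96 ± 1.33 CPM, and its lowest interval reached -0.49 (K815Q-labelled libraries against LacZ, log2 fold change -0.22). Hdac11, the only class IV enzyme, known as a defatty-acylase, had means of 8.66 ± 0.78, 9.03 ± 0.519, 9.23 ± 0.226 and 9.21 ± 0.695 CPM and log2 fold changes of 0.0046 to 0.09.

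Sirtuins were examined by compartment. In mitochondria, Sirt5, which removes succinyl and malonyl groups, stood at 74.2, 80.3 and 75.9 CPM with LacZ, 81.5, 84.6 and 81.8 with WT, 86, 81.5 and 83.6 with K815R, and 88.2, 80.3 and 85 in the K815Q-labelled libraries. LacZ lay below all 9 other libraries, though its highest and the lowest K815Q-labelled library differed by less than the last digit shown. The log2 fold changes against LacZ were 0.11, 0.12 and 0.14, none called (edgeR adjusted p 0.261, 0.254 and 0.0948). As for Naa10, the share of all genes with LacZ below every other library was not counted. Sirt3, the main mitochondrial deacetylase, had negative values, with means of 19.8 ± 0.605, 18.5 ± 1.01, 19 ± 0.208 and 19 ± 2.15 CPM and log2 fold changes against LacZ of -0.10, -0.06 and -0.06, none called. Its WT and K815R libraries lay wholly below LacZ, though the highest WT and the lowest LacZ library differed by less than the last digit shown.

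Sirt4, a mitochondrial lipoamidase and deacylase, had the largest log2 fold change of the set and few counts. It stood at 4.11, 3.79 and 3.36 CPM with LacZ, 4.87, 4.55 and 4.61 with WT, 5.05, 3.82 and 4.27 with K815R, and 5.46, 4.57 and 4.64 in the K815Q-labelled libraries. WT and the K815Q-labelled libraries lay wholly above LacZ, and K815R replicate 2 lay inside the LacZ range. The log2 fold changes were 0.32 (95% interval 0.04 to 0.60), 0.21 (-0.07 to 0.49) and 0.38 (0.10 to 0.66), and none was called (edgeR adjusted p 0.190, 0.528 and 0.0822).

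Sirt2, the cytosolic enzyme that deacetylates tubulin, had means of 103 ± 4.66, 104 ± 3.83, 111 ± 1.68 and 110 ± 1.93 CPM. K815R (109 to 112) and the K815Q-labelled libraries (108 to 111) lay above every LacZ library (97.5 to 106), with log2 fold changes of 0.11 and 0.10 that were not called (edgeR adjusted p 0.303 and 0.233). Of the nuclear enzymes, Sirt6, which acts on histone H3 and in DNA repair, had means of 39.7 ± 3.14, 37.8 ± 2.38, 37.8 ± 2.13 and 41.1 ± 1.56 CPM. Sirt7, the nucleolar sirtuin, had the smallest differences between group means of the set. Its libraries ran from 12.7 to 15.4 CPM, both in the K815Q-labelled group. Its means were 14.3 ± 0.241, 14.3 ± 0.35, 14.2 ± 0.114 and 14.3 ± 1.37 CPM, and its 95% intervals ran from -0.17 to 0.17.

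The bromodomain proteins Brd3, Brd7 and Brd9 were called in no comparison, where 0.363% to 7.85% of all genes were called. Brd3, of the BET family that ties acetylated chromatin to elongation, had means of 67.7 ± 1.65, 68.1 ± 2.18, 63.7 ± 4.97 and 69.1 ± 2.18 CPM, with the lowest library, K815R replicate 3, at 58.1. K815R differed from the K815Q-labelled libraries by -0.12 (95% interval -0.24 to 0.0007). Brd7, a subunit of the PBAF remodeller, had the smallest spread within groups of the 29, a median coefficient of variation of 1.62%, and means of 104 ± 1.91, 103 ± 0.186, 100 ± 3.84 and 104 ± 1.46 CPM. Its log2 fold changes ran from -0.06 to 0.02. All K815R libraries (95.8 to 102 CPM) lay below all libraries of the other groups (103 to 106). The share of all genes with K815R below every other library was not counted. Brd9, a subunit of the non-canonical BAF remodeller, had means of 33.2 ± 1.56, 36.4 ± 3.68, 34.4 ± 3.93 and 36 ± 2.4 CPM and log2 fold changes of -0.08 to 0.13.

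**Figure D3:**
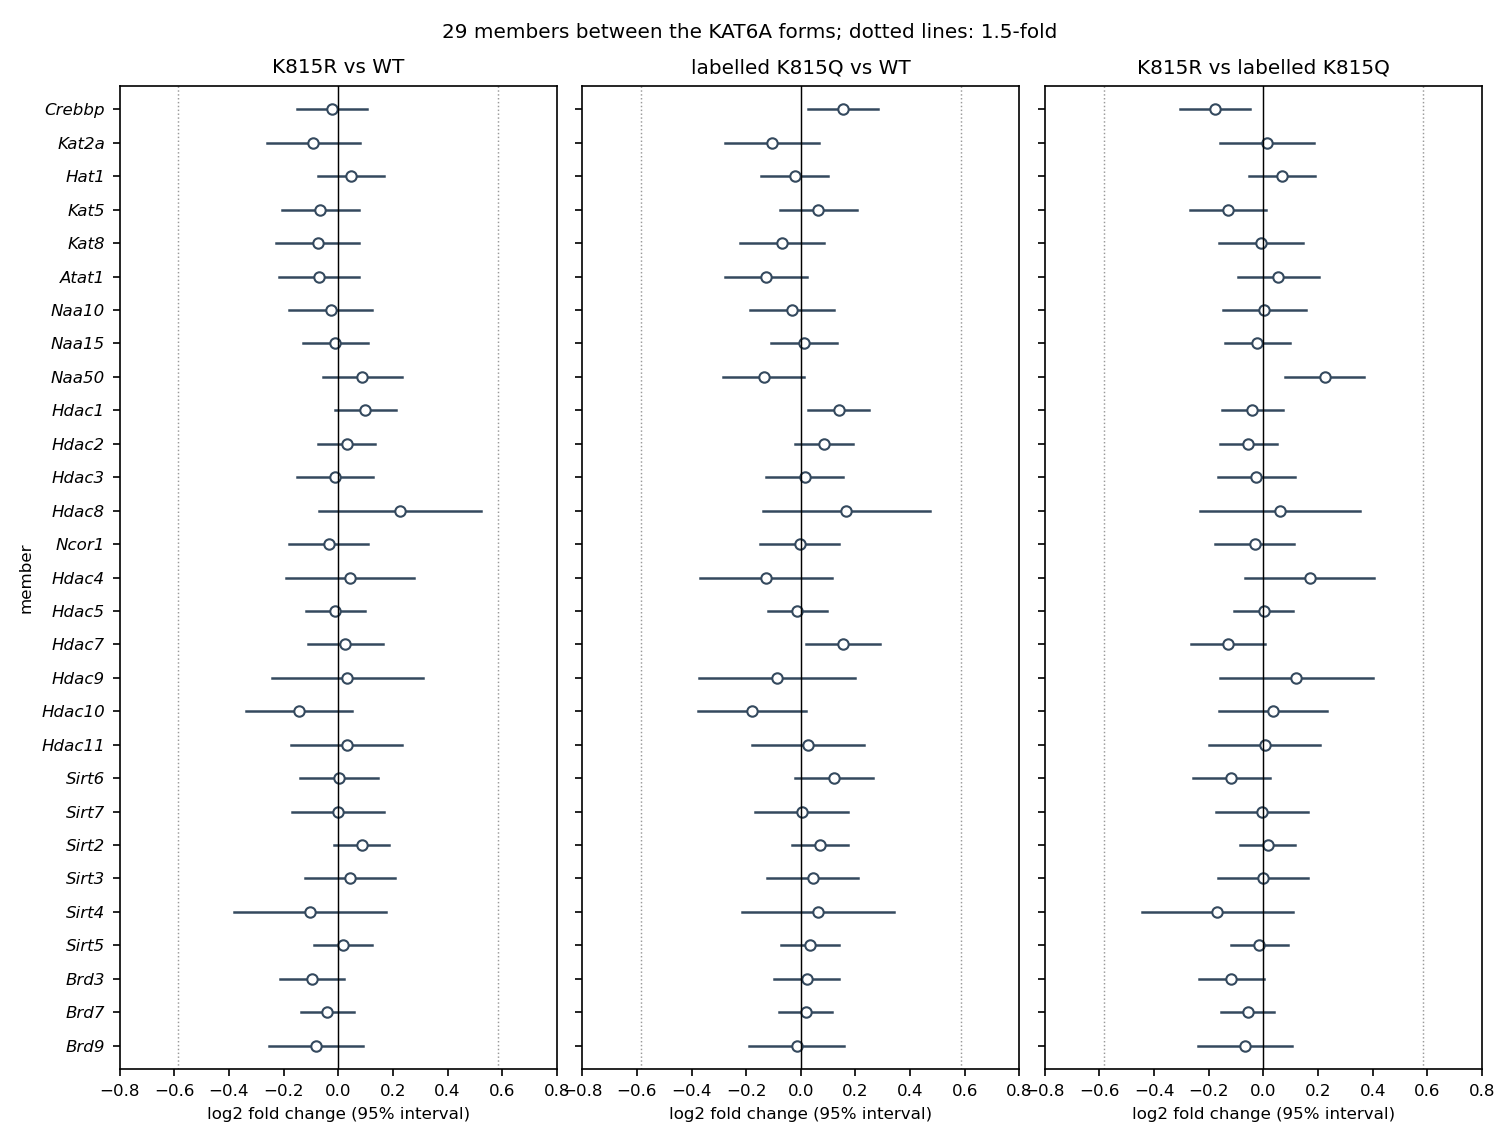
Log2 fold change between the KAT6A forms (points) with its 95% interval (lines) for the 29 genes, with dotted lines at 1.5-fold. None of the 29 was called in these comparisons (all genes 2.2%, 1.07% and 0.363%), and all points lie between -0.18 and 0.23.

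Summed over a class, levels differed between groups by little. The 9 acetyltransferase genes summed to 342 ± 4.02 CPM with LacZ, 350 ± 9.08 with WT, 345 ± 4 with K815R and 349 ± 2.88 in the K815Q-labelled group (SD, n = 3). The 10 HDAC genes summed to 480 ± 9.61, 478 ± 19.4, 485 ± 2.99 and 495 ± 2.72 CPM in the same order, and the 6 sirtuins to 257 ± 9.65, 262 ± 5.27, 270 ± 1.14 and 274 ± 5.9 CPM. These sums were chosen after the single genes were seen, are weighted to long and abundant transcripts, and were not tested.

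The partners of these enzymes were drawn from 13 lists: other acetyltransferases, subunits of coactivator and corepressor complexes, partners of class IIa HDACs, other readers, and enzymes that supply acetyl-CoA and NAD. Of 192 tested partner genes, 11 were called in WT against LacZ (2 higher and 9 lower, 5.73%, all genes 5.34%), 3 in K815R (1 and 2, 1.56%, all genes 2.47%) and 13 in the K815Q-labelled libraries (3 and 10, 6.77%, all genes 7.85%). Between the forms, K815R against WT gave 2 calls (1.04%, all genes 2.2%) and the other 2 comparisons 0 (all genes 1.07% and 0.363%). The medians of the partner genes against LacZ were -0.01, -0.03 and -0.03 on the log2 scale, where those of all genes were 0.01, 0.00 and 0.01.

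**Figure D4:**
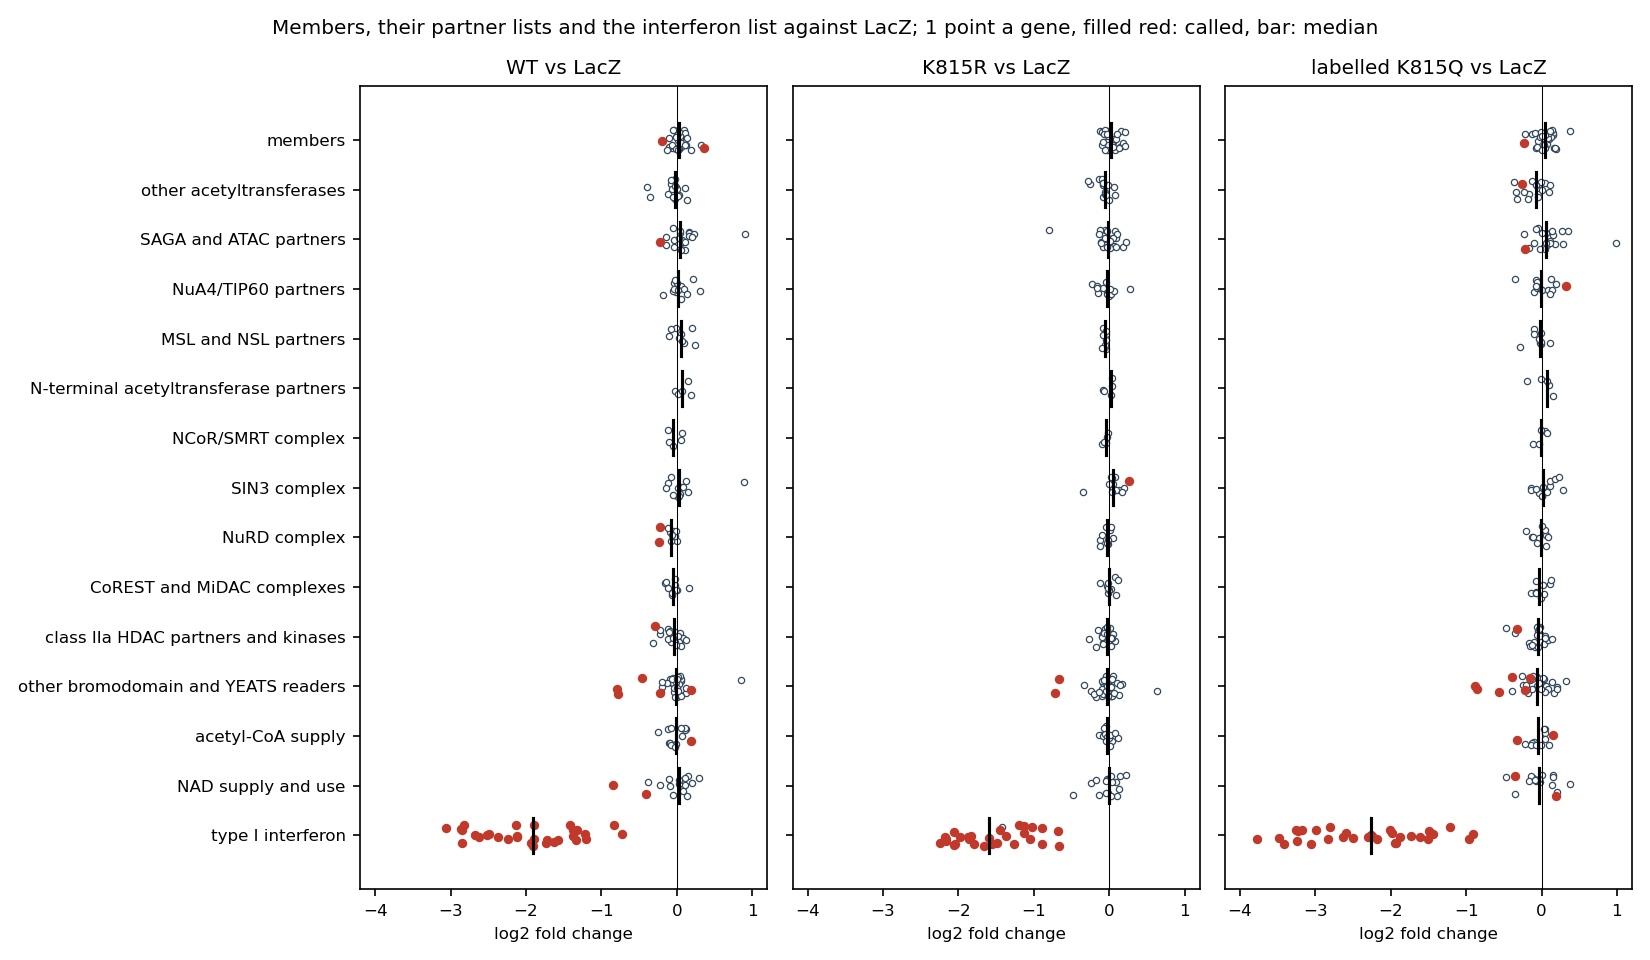
Log2 fold change against LacZ of each gene (points) of the 29-gene set, of the 13 partner lists and of the interferon list, with the list's median (bars) and called genes filled red. The medians of the acetylation lists lie near 0 in all 3 comparisons, while those of the interferon list are -1.90, -1.59 and -2.26.

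Among the largest changes of partner genes were those of other bromodomain readers. Sp110 and Sp100, bromodomain proteins of nuclear bodies that are themselves known to be induced by interferon, fell against LacZ in WT, K815R and the K815Q-labelled libraries. Sp110 stood at 48.2 to 58.3 CPM with LacZ, 26 to 34.2 with WT, 29.6 to 33.7 with K815R and 26 to 29.3 in the K815Q-labelled libraries, with log2 fold changes of -0.80, -0.72 and -0.88 (edgeR adjusted p 5.82e-05, 2.57e-04 and 2.18e-05). Sp100 changed by -0.77, -0.67 and -0.86 on the log2 scale (edgeR adjusted p 5.64e-04, 0.00362 and 2.07e-04). Atad2, a reader known to rise with cell division, fell in the K815Q-labelled libraries (11.1 to 13.9 CPM, LacZ 17.9 to 18.6, log2 fold change -0.56, edgeR adjusted p 5.86e-04), and its differences from LacZ in WT and K815R, -0.20 and -0.18, were not called. All these calls were kept without any single library. Of the 34 tested readers on this list, WT against LacZ gave 1 higher and 4 lower calls, K815R 2 lower and the K815Q-labelled libraries 6 lower (14.7%, 5.88% and 17.6%, all genes 5.34%, 2.47% and 7.85%), with medians of -0.01, -0.03 and -0.06. The interferon list fell in the same comparisons, and its part in these calls was not tested.

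Among the corepressor and coactivator subunits, few genes were called and their changes were small. Chd3 and Mta3, both of the NuRD complex that holds HDAC1, fell in WT against LacZ (log2 fold changes -0.23 and -0.22). They were 2 of 10 tested genes on the NuRD list (20%, all genes 5.34%). Yeats2, the acetyl-lysine reader of the ATAC complex, fell in WT and in the K815Q-labelled libraries (both -0.22). Ing3 of the TIP60 complex rose in the K815Q-labelled libraries (0.33), Ing1 of the SIN3 complex rose in K815R (0.26), and Ogt, a glycosyltransferase of the NSL complex, was lower in K815R than in WT (-0.25). Yeats2 was 1 of 22 tested genes on the SAGA and ATAC list in both comparisons (4.55%, all genes 5.34% and 7.85%). On their own lists Ing3 was 1 of 14 (7.14%, all genes 7.85%), Ing1 1 of 13 (7.69%, all genes 2.47%) and Ogt 1 of 9 (11.1%, all genes 2.2%). In the fits without 1 library every one of these genes kept its direction. The log2 fold changes were -0.26 to -0.20 for Chd3, -0.27 to -0.17 for Mta3 and 0.28 to 0.40 for Ing3. For Ing1 they were 0.23 to 0.29 and for Ogt -0.27 to -0.23. Each call was lost in some of these fits. That of Chd3 was lost without LacZ replicate 2 or WT replicate 1 or 2 (adjusted p up to 0.0781, edgeR), and that of Mta3 without any library but WT replicate 3 (up to 0.177). Yeats2 lost its WT call without LacZ replicate 2 or 3 or WT replicate 2 (up to 0.214) and its K815Q-labelled call without LacZ replicate 2 or 3 or K815Q-labelled replicate 1 or 3 (up to 0.144). Ing3 lost its call without LacZ replicate 1 or 2 or K815Q-labelled replicate 1 or 3 (up to 0.173), and Ing1 and Ogt without any of the 6 libraries (up to 0.142 and 0.130). Sik1, a kinase that phosphorylates class IIa HDACs, fell in WT (-0.29) and in the K815Q-labelled libraries (-0.32); the first was lost without LacZ replicate 1 or 2 or WT replicate 1 or 2 (adjusted p up to 0.159, edgeR), the second without LacZ replicate 2 or K815Q-labelled replicate 1 or 3 (up to 0.119). The NCoR/SMRT, CoREST and MiDAC and N-terminal acetyltransferase partner lists, with 5, 10 and 5 tested genes, had no called gene. Of all genes, 0.363% to 7.85% were called in the 6 comparisons, so a count of 0 does not set such short lists apart from genes at large.

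Of the enzymes behind the sirtuins' NAD, Nampt, which makes its precursor, stood at 47.6, 66.9 and 59.0 CPM with LacZ and 43.3, 43.2 and 44.6 with WT, and fell there (log2 fold change -0.40, edgeR adjusted p 0.0253) and in the K815Q-labelled libraries (-0.35, edgeR adjusted p 0.0443), where LacZ replicate 1 lay within the other group's range. Both calls were lost without any of the 6 libraries but LacZ replicate 1 (adjusted p up to 0.106 and 0.167, edgeR). Bst1, which cleaves NAD at the cell surface, fell in WT against LacZ (6.11 to 7.26 CPM to 2.95 to 4.70, log2 fold change -0.84, edgeR adjusted p 9.78e-04), and kept the call without any 1 library. Its level in K815R exceeded that in WT (0.67, edgeR adjusted p 0.0202), a call lost without WT replicate 1 or 3 or K815R replicate 1 or 2 (up to 0.117). On the acetyl-CoA side, Acat1, the mitochondrial thiolase, rose in WT (0.20) and in the K815Q-labelled libraries (0.15), and Acss2, which makes acetyl-CoA from acetate outside mitochondria, fell in the latter (-0.32). Acat1 lost its WT call without LacZ replicate 2 or WT replicate 2 (adjusted p up to 0.0959, edgeR) and its K815Q-labelled call without any library but K815Q-labelled replicate 2 (up to 0.188). Acss2 lost its call without LacZ replicate 2 or K815Q-labelled replicate 1 or 2 (up to 0.0827). Naprt, which makes NAD from nicotinic acid, rose in the K815Q-labelled libraries (0.19), a call kept without K815Q-labelled replicate 2 alone (otherwise up to 0.212), and Naa80, the actin N-terminal acetyltransferase, fell there (-0.25), a call lost without LacZ or K815Q-labelled replicate 1 or 2 (up to 0.134). Apart from single libraries, a fit of only the 2 groups compared ended the calls of Mta3, Yeats2 (WT), Nampt (both), Acat1 (K815Q-labelled) and Naprt. A change of scaling ended those of Mta3, Acat1 (K815Q-labelled) and Naprt, DESeq2 those of Ing3 and Naprt, leaving the filter out that of Acat1 (K815Q-labelled), the replicate block that of Nampt (K815Q-labelled), and a fit without the K815Q-labelled libraries that of Nampt in WT.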

How the data were processed

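The authors deposited raw read counts per Ensembl gene for 12 libraries. The submitters' processing notes name Trimmomatic 0.39, HISAT2 2.2.1, HTSeq 0.6.1, edgeR and the build Rnor_6.0, without saying how each was used, and the strand setting of the counting is not given in the sources used here. The table ends in 5 counter lines that name no gene, which were kept out of library sizes and tests. They hold 11.7% to 12.9% of reads (in no gene), 25.6% to 26.9% (several places), 2.69% to 3.06% (not aligned) and 0.461% to 0.500% (ambiguous). Of the 29 genes, 5 overlap another protein-coding gene in RefSeq GRCr8 (Kat8, Atat1, Sirt2, Brd9 and Ncor1) and 3 a long non-coding RNA (Hdac7, Hdac11 and Brd7), so their counts could include reads of a neighbour.

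Counts were scaled by TMM and filtered with filterByExpr (minimum count 10, minimum total 15). Differences were tested in edgeR 4.0.16 (R 4.3.3) by the robust quasi-likelihood test. A single model of the 4 group means covered the 12 libraries, with Benjamini-Hochberg adjustment over 14063 genes and calls under 0.05. SEs and 95% intervals follow from the F statistic. The common biological coefficient of variation was 0.0581. No replicate pair agreed within sampling noise (chi-square per degree of freedom 4.54 to 8.74). The procedure was also run on simulated data, drawn as independent libraries with the spread fitted here. Such data cannot show how it fares where libraries share a preparation. A count of 3 is 0.118 to 0.157 CPM, which covers counting error only.

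Every gene of the set is named; those called are given in full, and of each partner list at most the 3 called genes with the lowest p. The genes and lists were chosen with earlier results of these data known. Tried as well were scaling by RLE or upper quartile, testing without the filter or with 10 counts required in all libraries, DESeq2 1.42.0, a block for replicate number, fits of only the 2 groups compared, leaving out each library, and, added after the data were seen, leaving out the libraries labelled K815Q.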

Additional observations from a re-analysis of the deposited data

How the results depend on the processing

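The 2 calls among the 29 genes in WT against LacZ became 1 in DESeq2 and 0 to 1 when a library was left out. The 1 call in the K815Q-labelled libraries against LacZ became 0 in DESeq2 and in a fit of only these 2 groups, and 0 to 1 when a library was left out; the cause was not tested. Both counts were the same under RLE and upper-quartile scaling and under either change of the filter, and the first also in a fit without the K815Q-labelled libraries. In K815R against LacZ, in the 3 comparisons between forms and in the test of any difference the count was 0 under every alternative run, and no alternative called a gene of the set that is not named as called. Hdac1, Hdac10 and Naa50 kept their direction under each alternative. By correlation the replicate numbers showed no clear pairing of the libraries. Over 18 pairs of same-numbered libraries the correlation of deviations from the group means ran from -0.127 to 0.122. Of these, 1 of 18 exceeded 0.1, and 4 of 12 libraries correlated best with their own number. With the replicate number as a block the counts were 2, 0 and 1 against LacZ and 0 between the forms. The background over all genes moved more. WT against LacZ (751 calls) gave 378 without LacZ replicate 2 and 379 without WT replicate 2. K815R against LacZ (348) gave 185 and 229 without LacZ replicates 2 and 3, 173 and 196 without K815R replicates 1 and 3, and 600 with no filter. K815Q-labelled against LacZ (1104) gave 418 and 507 without LacZ replicates 2 and 3 and 360 and 733 without K815Q-labelled replicates 1 and 3, with 360 to 1182 over the fits without 1 library and 1528 with no filter. K815R against WT (309) gave 124 to 177 without any 1 library and 553 with no filter. K815Q-labelled against WT (151) gave 50, 67 and 53 without WT replicates 1 and 3 and K815Q-labelled replicate 1, 423 with no filter and 232 under the block. K815R against K815Q-labelled (51) gave 17 and 25 without K815R replicates 2 and 3, 11, 98 and 18 without K815Q-labelled replicates 1, 2 and 3, 307 with no filter, 86 under the block, 96 in DESeq2 and 85 with only the 2 groups. The 95% interval reached 0.304 to either side on the log2 scale for Hdac8 (67 to 116 counts per library), 0.285 for Hdac9 (108 to 220) and 0.281 for Sirt4 (82 to 105), against 0.0965 for Brd7 (1982 to 2535); both depth and the spread between libraries enter this width.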

Other observations

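Listed acetylation genes below the count rule entered no comparison. The row of Brd2, a bromodomain protein of the BET family, held 1 to 8 counts per library. That of Hdac6, the tubulin deacetylase, held 4 counts over all 12 libraries, with 9 of them at 0. Reads that aligned to several places, 25.6% to 26.9% per library, are in no gene's count. Their part in these low counts was not tested, so the rows do not show that the cells lack these transcripts.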
